A study of Mus musculus with 12 samples.

Results

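Pdx1 encodes a homeodomain transcription factor that sets up the pancreas and duodenum and keeps insulin-producing beta cells in their identity, and it is normally silent in liver. The comparison described here set 4 liver libraries from mice given a virus that carried a gRNA against Pdx1 beside 4 from mice given the same kind of virus with a non-targeting control gRNA, so 8 of the 12 libraries of the study entered it, chosen by their labels alone. All mice were of the Rosa26-LSL-dCas9-p300 strain, which holds a transgene for nuclease-dead Cas9 joined to p300 behind a stop cassette that Cre recombinase takes out. The sources used here do not give where Cre came from, and so not which cells made the fusion. Each virus mouse received 1e+12 viral genomes of an adeno-associated virus (AAV.Cbh.gRNA) through the tail vein when roughly 8 weeks old, and its liver was frozen 2 weeks later. The remaining 4 libraries, from mice given PBS without virus, entered the fit to help estimate the spread and are given as background levels. Both virus groups thus share the strain, the vector and the dose, and they differ by label in the gRNA.

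A gRNA brings the dCas9-p300 fusion to a chosen site without a cut, and p300, a histone acetyltransferase, acetylates nucleosomes at promoters and enhancers, which is linked to active transcription. The comparison with a control gRNA asks what the targeting itself changes in mice of the same strain given the same kind and dose of virus. Whether the fusion was made at the same level in both groups was not tested. Interferon-stimulated genes are the antiviral effectors that cells switch on after sensing nucleic acid, and their promoters often carry a short element (ISRE) bound by interferon regulatory factors. The liver clock runs on CLOCK and BMAL1 (Arntl), which bind the E-box of the Per and Cry genes, whose products then repress them.

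The promoter of the targeted gene and those of a clock gene (Per1), 2 interferon-stimulated genes (Ifit3, Isg15) and Slfn8, to which the results return, are printed 5′ to 3′ on the gene's strand, from RefSeq on build GRCm38.p6. Each is the part of the 250 bases before the RefSeq start that lies in no exon of the same gene in the annotation of the deposited files. The gRNA sequences and their sites were not used here, so the first sequence shows the gene and not the site targeted. Capitals mark an E-box (CACGTG) in Per1 and an ISRE core (GAAANNGAA, either strand) in the other 3.
Pdx1, chr5:147269847-147269958, plus strand: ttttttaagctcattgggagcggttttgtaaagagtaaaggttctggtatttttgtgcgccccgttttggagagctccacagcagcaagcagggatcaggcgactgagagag
Per1, chr11:69098699-69098947, plus strand: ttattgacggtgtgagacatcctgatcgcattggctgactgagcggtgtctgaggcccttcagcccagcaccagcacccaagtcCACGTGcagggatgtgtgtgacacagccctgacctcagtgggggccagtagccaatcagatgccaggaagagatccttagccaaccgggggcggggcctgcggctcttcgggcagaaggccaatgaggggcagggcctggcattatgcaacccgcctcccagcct
Ifit3, chr19:34583279-34583528, plus strand: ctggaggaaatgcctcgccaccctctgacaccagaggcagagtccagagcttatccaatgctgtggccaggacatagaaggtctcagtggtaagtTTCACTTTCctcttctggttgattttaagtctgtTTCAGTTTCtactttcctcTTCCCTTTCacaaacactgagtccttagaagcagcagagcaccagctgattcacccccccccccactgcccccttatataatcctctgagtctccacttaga
Isg15, chr4:156200819-156201068, minus strand: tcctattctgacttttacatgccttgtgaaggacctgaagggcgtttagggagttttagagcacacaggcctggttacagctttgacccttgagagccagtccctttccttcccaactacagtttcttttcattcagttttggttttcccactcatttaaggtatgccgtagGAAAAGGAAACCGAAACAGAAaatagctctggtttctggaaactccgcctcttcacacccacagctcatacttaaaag
Slfn8, chr11:83020811-83021060, minus strand: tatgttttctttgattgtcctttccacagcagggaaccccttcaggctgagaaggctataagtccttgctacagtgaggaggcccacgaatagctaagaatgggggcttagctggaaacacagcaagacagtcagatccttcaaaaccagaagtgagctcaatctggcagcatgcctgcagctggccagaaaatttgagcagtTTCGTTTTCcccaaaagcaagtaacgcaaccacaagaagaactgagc
Ifit3 held 3 separate ISRE cores, which began 155, 121 and 102 bases before the start, Isg15 held 3 that overlapped each other, and Slfn8 held 1 that began 47 bases before it. Per1 held 1 E-box, 166 bases before the start, in the first of its RefSeq windows and none in the second. The same letters were searched on both strands in all 32851 RefSeq windows of 300 bases (250 before and 50 after a start). The ISRE core was in 8.56% of them and the E-box in 7.15%. A match is a run of letters, and binding was not measured.

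The 8 libraries held 13531769 to 22008046 counts assigned to genes, with mitochondrial genes at 3.31 to 5.72% of counts in the Pdx1 gRNA group and 5.11 to 7.76% in the control gRNA group. Liver identity was plain in all of them: albumin (Alb) lay between 36070 and 78360 CPM (counts per 1e+06 counts, on library sizes scaled by the trimmed mean of M-values, TMM) with the Pdx1 gRNA and between 37200 and 51990 CPM with the control gRNA. Xist, which coats the inactive X chromosome of females, was at 584 to 988 CPM in the 8 virus libraries. In PBS libraries 1 and 4 it was at 1443 and 796 CPM, and in PBS libraries 2 and 3 at 3.14 and 4.41 CPM, so the PBS group is not of one kind in this gene. The 5 X-inactivation and Y-linked genes, Xist among them, summed to at least 192 CPM in every PBS library. In PBS libraries 2 and 3 that RNA was thus mostly of members other than Xist. Members under the count filter held 12 raw counts in the Pdx1 gRNA group and 18 in the control gRNA group, not scaled for library size. The sex of the mice is not in the labels. Without PBS libraries 2 and 3 edgeR again called 0 genes (1112 of 16170 at an unadjusted p under 0.05). In that fit 1053 genes had groups apart, and no list median moved by more than 0.01 (log2). Without PBS library 1 edgeR called 1 gene, with 1602 of 15444 at an unadjusted p under 0.05. With only the 8 virus libraries it called 1, with 1632 of 14910, against 918 of 15219 with all 12. The count of small p-values thus depended on which PBS libraries entered the fit. Whether each library came from a separate mouse is not in the labels, and a p-value here speaks only of the variation among the libraries, which may be technical. A pair of libraries stood apart from their groups in genes chosen after their values were seen, so these genes are no independent sign of it. Pdx1 gRNA 4 and control gRNA 1 were each the high outlier of their group for the fetal liver transcripts H19, Igf2 and Afp. For H19, control gRNA 3 was also high, at 342 CPM, above the 232 CPM of Pdx1 gRNA 4. The effect of leaving out 1 library is given beside the results that it moves most.

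**Figure D1:**
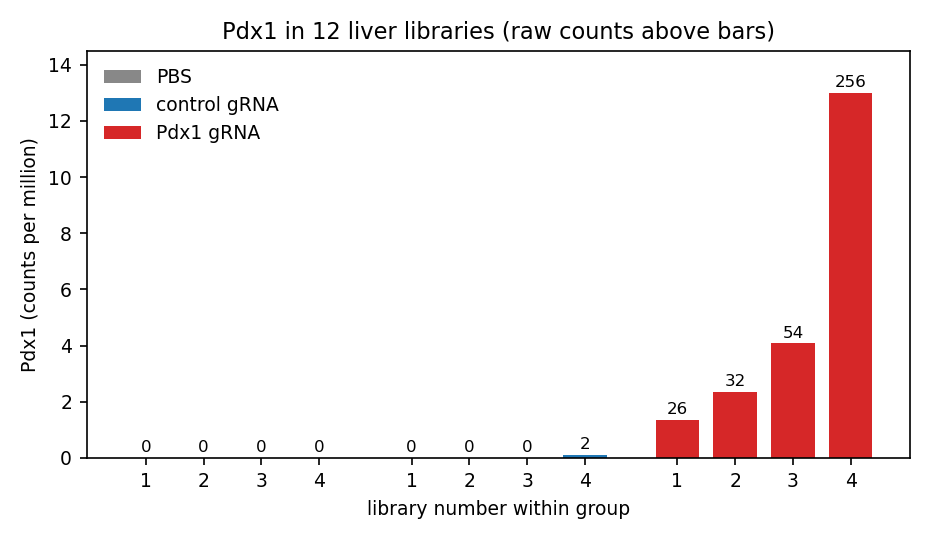
Pdx1 in CPM (vertical axis) in each of the 12 liver libraries (horizontal axis, numbered within PBS, control gRNA and Pdx1 gRNA), with the raw count above each bar. The 4 Pdx1 gRNA libraries held 26, 32, 54 and 256 counts and the others 0 except control gRNA 4 with 2.

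Pdx1 RNA (ENSMUSG00000029644.7, chromosome 5, 147269959 to 147275848 on the plus strand, GRCm38) was at 1.35, 2.36, 4.08 and 13 CPM in Pdx1 gRNA libraries 1 to 4. In control gRNA libraries 1 to 3 it was at 0, and in library 4 at 0.111 CPM, which is 2 counts. Every Pdx1 gRNA library therefore lay above every control library, and within the group the highest was 9.66 times the lowest. Library 4 alone held 69.6% of the 368 counts. The ratio of summed counts was 247 (95% exact counting interval 67.8 to 2044, counting error only), and 107 without Pdx1 gRNA 4. With Pdx1 gRNA 4 and control gRNA 1 both left out it was 74.7. An exact two-sided permutation test of the group means gave p = 0.0286, the smallest value that the 70 assignments allow.

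In the fit across all genes the log2 fold change of Pdx1 was 7.42 ± 1.11 (SE), the largest of 15219 genes tested. Its adjusted p was 0.444 in edgeR's quasi-likelihood test and 0.00335 in DESeq2's Wald test, so the call rests on the tool. Per kilobase of its 2158 exonic bases, Pdx1 stood at 0.624, 1.09, 1.89 and 6.03 CPM per kb in the 4 libraries. These levels exceeded those of 18.2, 29.0, 39.3 and 63.6% of tested genes in the same library. On the same scale the group mean was 2.41, against 3.11 for Onecut1, 5.86 for Foxa1, 38.2 for Foxa3 and 124 for Hnf4a, all transcription factors that liver expresses. Pdx1 thus lay under each of these regulators in mean level per length. In Pdx1 gRNA 4 alone, at 6.03, it was above the group means of Onecut1 and Foxa1. Plut, an RNA on the opposite strand that overlaps Pdx1, had 5, 3, 0 and 9 counts in the Pdx1 gRNA libraries and 0 in the control libraries. Counting ignored strand, so reads from the pair cannot be told apart. Cdx2 and Gsx1, homeobox genes of the same neighbourhood, had 0 counts in all 8 libraries. Gm27033, also counted at this locus, had 1, 0, 5 and 9 counts with the Pdx1 gRNA and 0 in each control library. Urad there had 384, 187, 459 and 276 raw counts against 285, 294, 254 and 208, so its groups overlapped in raw counts. They summed to 1306 against 1041, although library totals ran lower with the Pdx1 gRNA (13531769 to 18063529 against 16963079 to 22008046 counts). Raw counts are not scaled for library size, so no fold is read from them. Whether the targeting reached these genes was not tested.

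Genes that Pdx1 works with in pancreas were mostly at or near 0 counts in both groups. Of 37 islet endocrine genes, 33 missed the filter on low counts. Of these, 8 had no count in any of the 8 libraries, among them both insulin genes (Ins1, Ins2), Neurog3 and Neurod1, the factors that start endocrine development, and Isl1. The 33 untested genes summed to 160 raw counts with the Pdx1 gRNA and 228 with the control gRNA. Such raw sums are not scaled for library size, and the control gRNA libraries were mostly larger. Of 39 exocrine, ductal progenitor and duodenal genes, 14 had no count, among them the acinar master gene Ptf1a. The 28 untested ones summed to 121 against 203 raw counts. Onecut1 was at 11.4, 4.35, 23.1 and 12.2 CPM against 6.16, 4.59, 6.50 and 6.76, where library 2 overlaps (unadjusted p = 0.0287, edgeR adjusted p = 0.809).

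Across all genes, edgeR called 0 of 15219 at an adjusted p under 0.05 (percent called 0 in each direction), and 918 (6.03%) had an unadjusted p under 0.05. Limma-voom called 0 as well, with 971 at an unadjusted p under 0.05, and DESeq2 called 14 of 15154 (0.0924%), 6 higher (0.0396%) and 8 lower (0.0528%). In 1012 genes (6.65%) the 4 Pdx1 gRNA libraries all lay on one side of the 4 control libraries, 530 above (3.48%) and 482 below (3.17%). With upper-quartile scaling that split turned to 289 above and 705 below. The median log2 fold change over all tested genes was -0.006 and the median of its absolute value 0.187, beside a median SE of 0.251. A fold of 2 or more was reached by 441 genes, 109 of them with groups that did not overlap. The typical difference was thus smaller than the typical error of this fit, which includes the PBS libraries.

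**Figure D2:**
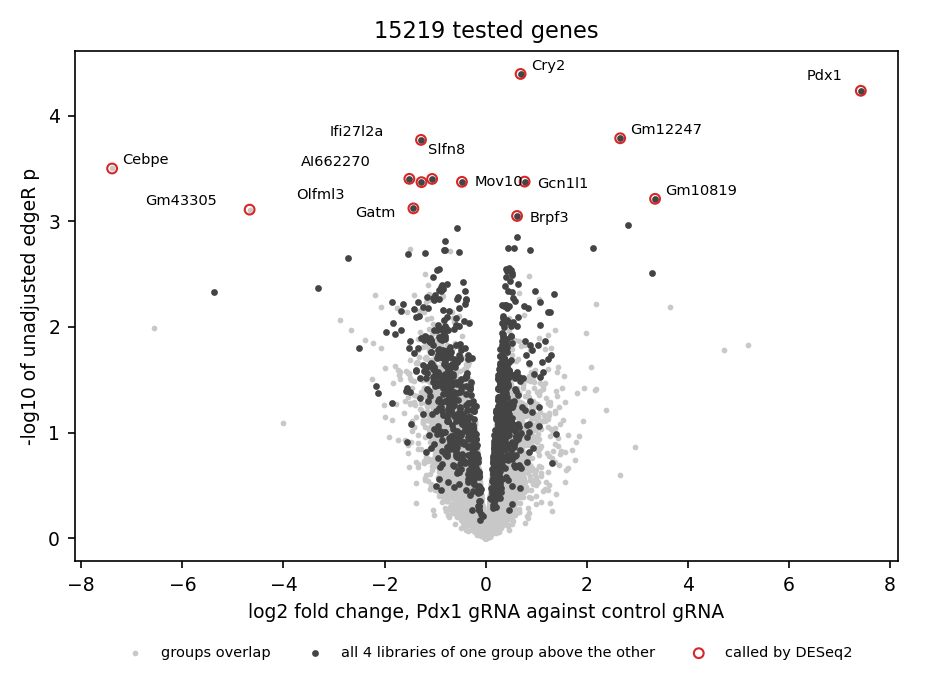
Each of the 15219 tested genes by its log2 fold change, Pdx1 gRNA against control gRNA (horizontal axis), and -log10 of its unadjusted edgeR p (vertical axis). Dark points are the 1012 genes whose 4 libraries of one group all lie above the other group, and red rings mark the 14 genes that DESeq2 called, with Pdx1 at the far right.

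Among the 14, Cry2 had the smallest p in both edgeR and DESeq2. It encodes a cryptochrome, a repressor of CLOCK and BMAL1. It was at 44.8, 42.4, 51.9 and 42.8 CPM with the Pdx1 gRNA and at 28.9, 29.9, 24.8 and 29.0 CPM with the control gRNA. The groups were far apart relative to their spread, with means of 45.5 ± 4.41 and 28.2 ± 2.29 CPM (SD, n = 4 each), and PBS libraries ran higher still, from 51.6 to 60.5 CPM. The log2 fold change was 0.69 ± 0.11 (edgeR adjusted p = 0.444, DESeq2 adjusted p = 1.64e-05). Leaving out each library in turn moved it between 0.62 and 0.74.

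Gcn1l1 (the older symbol of Gcn1), which senses stalled ribosomes and activates the kinase GCN2, was at 107, 71.9, 121 and 114 CPM against 60.9, 59.3, 61.4 and 61.6 CPM. Control libraries were nearly level and Pdx1 gRNA 2 lay closest to them. Its log2 fold change was 0.77 ± 0.16 (DESeq2 adjusted p = 0.0131). Brpf3, a scaffold of histone acetyltransferase complexes, was at 83.5, 93.8, 89.4 and 67.9 CPM against 50.8, 52.0, 50.4 and 63.8 CPM, so library 4 of each group came close to the other (0.62 ± 0.15, DESeq2 adjusted p = 0.0455). The predicted genes Gm12247 (3.78, 4.35, 5.44 and 1.47 against 0.522, 0.887, 0.497 and 0.443 CPM) and Gm10819 (3.73, 0.663, 4.91 and 4.22 against 0.373, 0.261, 0.331 and 0.333 CPM) completed the higher calls with Pdx1. Gm10819 lies across from Gnaq on the opposite strand, which summed to 2705 and 3939 raw counts in the 2 groups. Counts of Gm10819 are thus uncertain without strand.

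By the rule of smallest p among abundant genes with groups apart, Foxa3, Lonrf1 and Rnf24 were among the higher genes that followed, none of these 3 called by edgeR or DESeq2. Foxa3, a pioneer factor of liver genes, was at 72.5, 82.5, 92.0 and 64.1 CPM against 43.4, 55.4, 50.2 and 53.5 CPM (0.62 ± 0.15). Lonrf1 (log2 fold change 0.55) and Rnf24 (0.88), both RING finger genes, each had 4 libraries above 4. Rnf24 overlaps Pank2 on the opposite strand, so its reads cannot be fully separated.

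Of the 8 genes that DESeq2 called lower, Ifi27l2a, an interferon-induced gene, had the smallest edgeR p. It was at 7.92, 7.30, 7.03 and 9.60 CPM with the Pdx1 gRNA and 23.7, 17.7, 21.0 and 15.3 CPM with the control gRNA. The lowest control library was well above the highest Pdx1 gRNA library, and PBS libraries lay at 2.56 to 6.73 CPM, under both. The log2 fold change was -1.28 ± 0.25 (edgeR adjusted p = 0.646, DESeq2 adjusted p = 0.00114). Mov10, an RNA helicase that restricts viruses and retroelements, was at 40.03, 40.4, 36.2 and 38.9 CPM against 57.9, 50.1, 55.7 and 52.0 CPM, a small difference with tight groups (-0.47 ± 0.10). Slfn8, a Schlafen gene, was at 2.95, 2.43, 2.42 and 2.74 CPM against 4.81, 7.15, 5.50 and 4.6 CPM (-1.06 ± 0.22). AI662270, at 1.61, 1.33, 1.06 and 1.58 CPM against 3.51, 4.75, 5.13 and 2.61 CPM, overlaps Gm11427 on its own strand.

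Olfml3, a secreted matrix protein, was at 4.76, 2.88, 3.02 and 4.27 CPM against 12.6, 7.93, 8.03 and 7.59 CPM, with control gRNA 1 the highest. Gatm, which makes the creatine precursor guanidinoacetate, was at 8.70, 4.35, 6.87 and 9.50 CPM against 19.7, 20.5, 25.8 and 13.9 CPM. The last 2 calls, the neutrophil transcription factor gene Cebpe and the predicted gene Gm43305, lie on chromosome 14 (54710363 to 54712174 and 54292443 to 54297343). Gm43305 was at 8.80, 5.09, 2.19 and 3.51 CPM against 60.5, 140, 4.51 and 298 CPM, and Cebpe at 0, 0, 0 and 0.0508 CPM against 1.75, 6.0, 0.0414 and 7.37 CPM. In both, control gRNA 3 lay within the range of the Pdx1 gRNA libraries, so these 2 calls were the only ones of the 14 whose groups overlap. Cebpe's summed counts were 1 against 296, a ratio of 221 of control to Pdx1 gRNA (95% exact counting interval 39.3 to 8753, counting error only). PBS libraries held 3.42 to 16.8 CPM of Cebpe and 35.0 to 143 CPM of Gm43305, so the Pdx1 gRNA group and control gRNA 3 lay below all 4 of them in both genes.

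**Figure D3:**
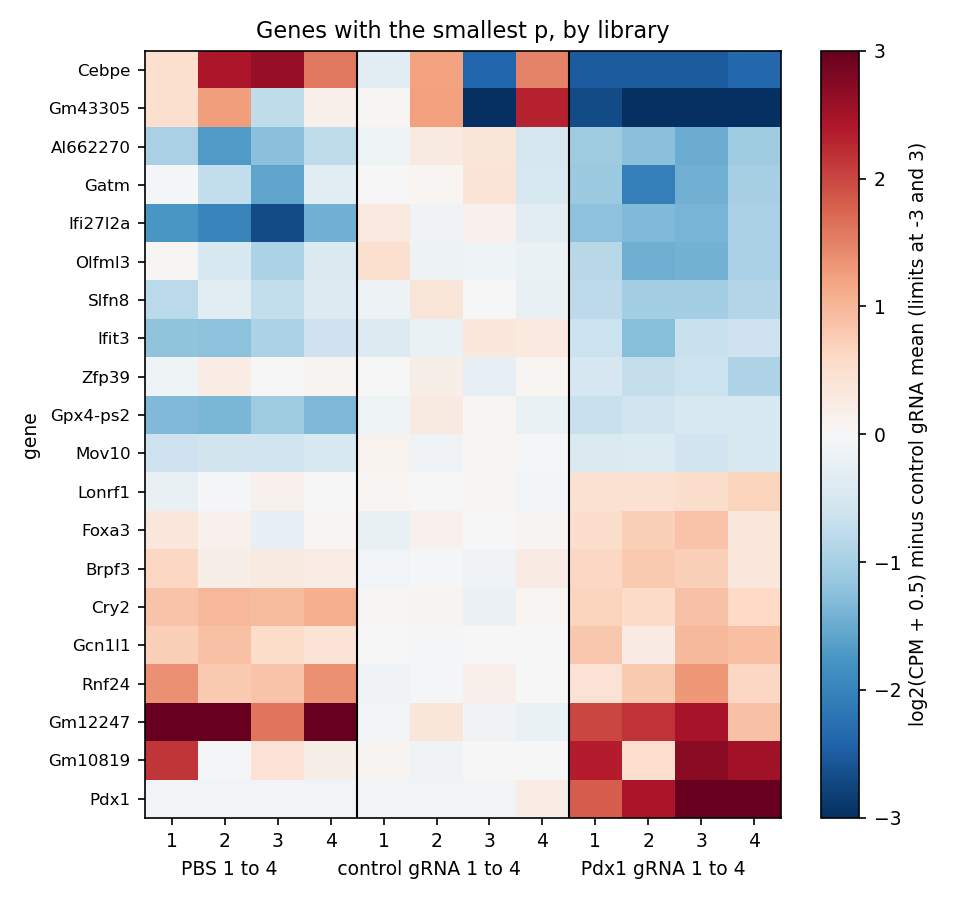
Log2(CPM + 0.5) minus the mean of the control gRNA libraries (colour, drawn between -3 and 3) for the reported genes among those called by DESeq2 and those with the smallest edgeR p (rows) in the PBS, control gRNA and Pdx1 gRNA libraries (columns). Cry2 and Lonrf1 are higher and Ifi27l2a and Ifit3 lower than the control mean in all 4 Pdx1 gRNA libraries, and Cebpe and Gm43305 vary widely among the control libraries.

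The lower genes outside DESeq2's calls were Gpx4-ps2, Zfp39 and Ifit3. Ifit3, whose promoter with 3 ISRE cores is printed above, encodes an antiviral tetratricopeptide protein. It was at 25.2, 16.1, 24.9 and 25.8 CPM with the Pdx1 gRNA and 29.8, 34.6, 50.2 and 49.1 CPM with the control gRNA (log2 fold change -0.83 ± 0.21). Zfp39, a zinc finger gene, was at 2.95, 2.51, 2.64 and 2.08 CPM against 4.44, 5.06, 3.68 and 4.6 CPM. Gpx4-ps2 is a pseudogene whose reads may come from Gpx4.

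Interferon-stimulated genes as a list leaned one way. All 44 tested members of 45 had a log2 fold change below 0, against 49.1% of all tested genes above 0, with a median of -0.54 and a range of -1.28 to -0.03. The 4 libraries of each group did not overlap in 15 of the 44, all lower (3.17% of all tested genes). None passed edgeR's adjusted threshold, and 1, Ifi27l2a, passed DESeq2's. The median deviation of the members from the mean of the 8 libraries was -0.05, -0.45, -0.35 and -0.12 (log2 CPM) in Pdx1 gRNA libraries 1 to 4 and -0.01, 0.19, 0.41 and 0.30 in control libraries 1 to 4. Control gRNA 1 thus nearly met Pdx1 gRNA 1. The median stayed between -0.63 and -0.44 over all alternatives tried. Members of such a list share regulators and libraries and are not independent measurements.

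Ordered by role, the effectors showed it as follows. Isg15, the ubiquitin-like modifier, was at 30.0, 21.8, 31.5 and 32.8 CPM against 36.8, 49.8, 60.0 and 52.0 CPM (-0.77 ± 0.22). Ifit1, which binds foreign RNA ends, was at 20.7, 13.7, 20.9 and 19.6 CPM against 21.5, 32.8, 35.3 and 46.6 CPM, where control gRNA 1 sits just above the other group. Mx1, a GTPase that blocks viruses, was at 5.13, 2.36, 4.99 and 5.94 CPM against 7.39, 6.73, 14.8 and 9.48 CPM. Rsad2 (viperin) had groups that overlap, at 27.5, 15.8, 20.9 and 35.7 CPM against 32.9, 50.5, 91.0 and 55.3 CPM. Among the regulators, Irf7, which amplifies interferon production, was at 71.5, 60.9, 55.7 and 62.8 CPM against 69.1, 112, 132 and 97.8 CPM, again with control gRNA 1 inside the other group. Stat2 (log2 fold change -0.06) and Irf9 (-0.03), parts of the factor that binds the ISRE, were near 0. Of the 36 RefSeq windows that belong to tested members, 20 (55.6%) held an ISRE core such as those printed for Ifit3 and Isg15.

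In the list of sensors of viral nucleic acid, 17 of 24 tested genes were below 0 and 7 above (median -0.16), and 2 had groups apart, both lower (8.33%, against 3.17% of all tested genes). They were the STING gene Tmem173, at 2.38, 2.36, 2.04 and 3.10 CPM against 4.92, 3.44, 4.80 and 3.33 CPM, and Aim2, a sensor of cytosolic DNA, at 2.64, 1.62, 1.28 and 1.98 CPM against 2.76, 5.17, 4.59 and 3.38 CPM. Antigen presentation and interferon gamma genes were below 0 in 42 of 42 (median -0.39), and 3 of them, the MHC class II genes H2-Aa, H2-Ab1 and H2-Eb1, had groups apart, all lower (7.14%, against 3.17% of all tested genes). The list median was -0.21 without control gRNA 2 and -0.67 without Pdx1 gRNA 1. H2-Ab1 was at 70.7, 43.1, 27.7 and 60.3 CPM against 82.7, 88.6, 102 and 73.7 CPM.

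Markers of immune cells were lower beside these genes. Of 26 neutrophil genes 13 were tested, 12 below 0 with a median of -1.51, and in 6 the groups did not overlap, all lower (46.2%, against 3.17% of all tested genes). The other 13 summed to 78 raw counts with the Pdx1 gRNA and 296 with the control gRNA, not scaled for library size. S100a9, a calcium-binding protein that fills neutrophils, was at 0.311, 1.47, 0.831 and 0.559 CPM against 2.84, 4.38, 2.52 and 2.49 CPM, and Ngp, a granule protein, at 0.363, 1.11, 0.755 and 0 CPM against 2.43, 2.50, 2.03 and 2.38 CPM. These are low levels, and in whole liver fewer cells of a type and less RNA per cell cannot be told apart. Summed over the list, CPM ran from 101 to 174 with the Pdx1 gRNA and from 143 to 225 with the control gRNA. Cebpe, a gene of the same list, did not follow the others in control gRNA 3, which had 0.0414 CPM of Cebpe and 2.52 CPM of S100a9.

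Macrophage, monocyte and dendritic cell genes were below 0 in 35 of 35 (median -0.82), with 3 apart, all lower: Trem2, Cx3cr1 and Ccr2 (8.57%, against 3.17% of all tested genes). The summed level ran from 488 to 1262 CPM with the Pdx1 gRNA and from 760 to 1802 CPM with the control gRNA. Cx3cr1, a chemokine receptor of monocytes, was at 5.64, 5.31, 3.48 and 4.32 CPM against 12.8, 7.41, 10.0 and 10.3 CPM. T and NK cell genes were below 0 in 31 of 32 tested (median -0.77, and -0.50 without Pdx1 gRNA 3), with 4 apart, all lower (12.5%), and summed to 61.3 to 86.1 CPM against 74.5 to 114 CPM. Gzma, a granule protease of killer cells, was at 1.97, 0.442, 0.302 and 1.63 CPM against 2.57, 4.02, 3.48 and 2.61 CPM. None of the genes in these 2 lists passed an adjusted threshold, no marker of the 3 immune cell lists was at 0 in all 8 libraries, and the part of immune cell RNA in the interferon difference was not tested.

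Stellate cell and matrix genes were below 0 in 26 of 30 (median -0.67) and cholangiocyte genes in 15 of 16 tested (median -0.64). Neither list had a member apart and lower, against 3.17% of all tested genes. Each had 1 apart and higher (3.33% and 6.25%, against 3.48% of all tested genes). Control gRNA 1 stood at 0.86 and 1.18 (log2 CPM deviation) on these lists, the highest of the 8 libraries. Without it the cholangiocyte median was 0.00 and the stellate cell median -0.39. Spp1, expressed by bile duct cells and macrophages, shows it: 361 CPM in control gRNA 1 and 37.8 to 95.8 CPM in the other 7. Its log2 fold change was -1.28, and -0.15 without control gRNA 1. Sinusoidal endothelial genes were below 0 in 21 of 27 (median -0.17) and B and plasma cell genes in 16 of 18 tested (median -0.31). The sinusoidal median was 0.00 without Pdx1 gRNA 2, and the B and plasma cell median turned to 0.06 without control gRNA 2.

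**Figure D4:**
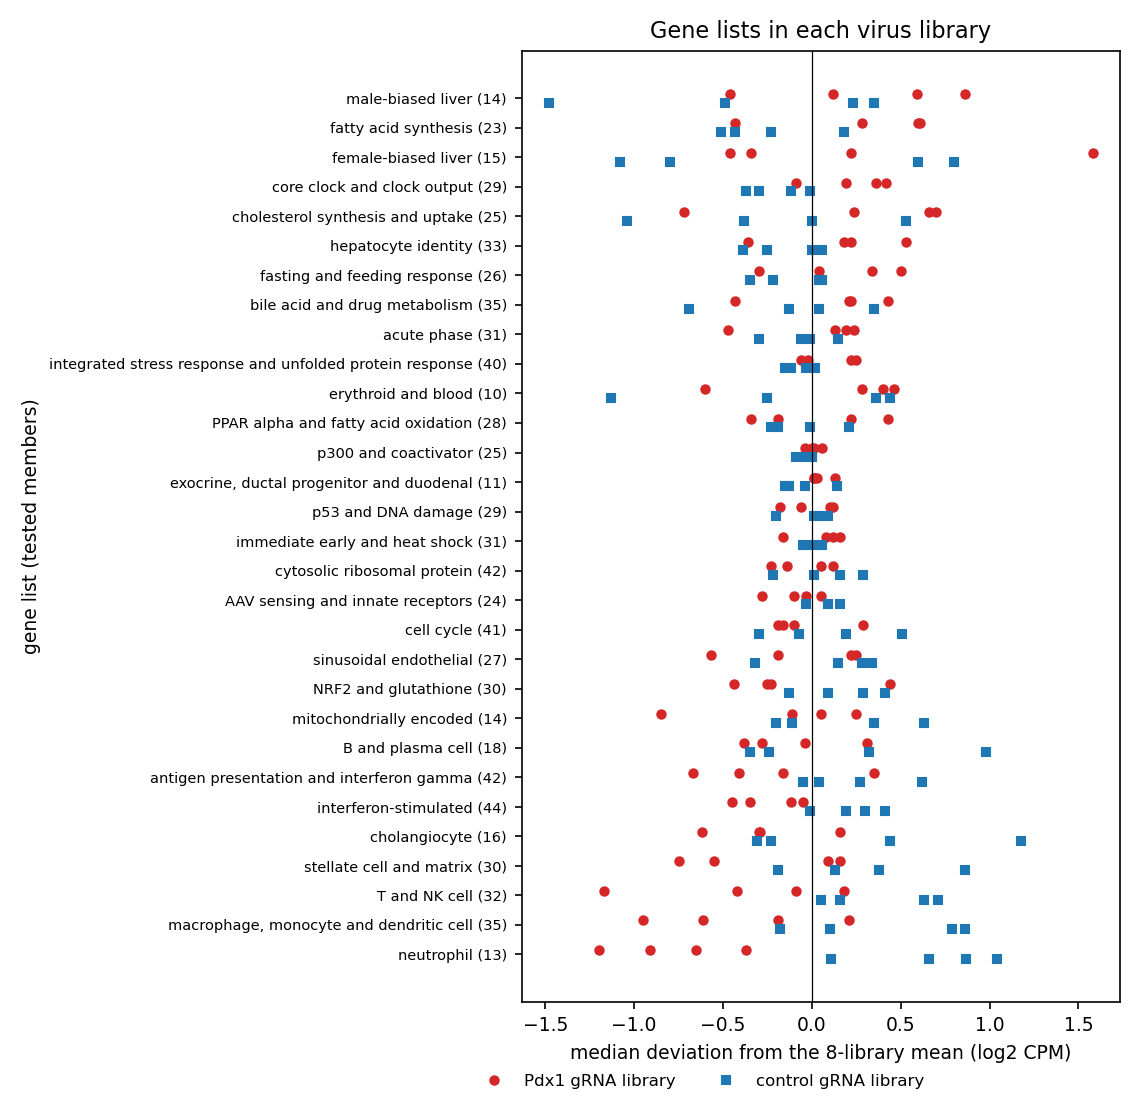
Median deviation of each list's tested members from the mean of the 8 virus libraries in log2 CPM (horizontal axis), 1 point per library, for the lists with at least 10 tested members (vertical axis, number tested in brackets). Circles are Pdx1 gRNA and squares control gRNA libraries; neutrophil and interferon-stimulated lists are the only ones of those drawn whose 4 circles all lie to one side of the 4 squares.

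Clock genes leaned the other way: 24 of 29 tested members were above 0 (median 0.45), and in 3, Cry2, Wee1 and Alas1, the groups did not overlap, all higher (3.48% of all tested genes). Library 4 of each group came closest to the other, with medians of -0.09 for Pdx1 gRNA 4 and -0.01 for control gRNA 4. The members that repress the clock and the output genes were on the higher side. Per1 was at 119, 93.5, 108 and 64.7 CPM against 48.8, 49.9, 44.9 and 70.5 CPM, and Per2 at 83.3, 60.2, 95.2 and 36.0 CPM against 27.3, 36.9, 21.7 and 47.1 CPM. In both, Pdx1 gRNA 4 lay below control gRNA 4, and for Per2 also just below control gRNA 2, so the overlap came from Pdx1 gRNA 4. Dbp, a clock output factor driven through E-boxes, was at 133, 115, 192 and 76.6 CPM against 87.2, 103, 46.7 and 98.3 CPM.

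The activators were on the lower side. Arntl (BMAL1) was at 2.23, 3.61, 1.89 and 6.35 CPM against 5.63, 4.33, 8.73 and 3.38 CPM, with a log2 fold change of -0.64 ± 0.45, and Npas2 and Clock were at -0.55 and -0.21. None of the 29 passed edgeR's adjusted threshold, and Cry2 passed DESeq2's. The sources used here do not state the hour of harvest, and its part was not tested. Of the 33 RefSeq windows of tested clock members, 7 (21.2%) held the E-box seen in Per1.

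Hepatocyte genes also leaned higher. Of 33 tested identity genes, 29 were above 0 with a median of 0.28, and Foxa3, Hnf4a and Tat had groups apart, all higher (9.09%, against 3.48% of all tested genes). The median was 0.14 without Pdx1 gRNA 3 and 0.44 without Pdx1 gRNA 4. Hnf4a, the nuclear receptor at the head of the hepatocyte programme, was at 555, 568, 701 and 561 CPM against 433, 493, 473 and 512 CPM (log2 fold change 0.32 ± 0.20). Fatty acid synthesis genes were above 0 in 22 of 23 (median 0.60) and cholesterol genes in 24 of 25 (median 0.35). Of both lists only Gpam had groups apart, higher (4.35% of the first list and 0% of the second, against 3.48% of all tested genes). Libraries overlapped on both lists: Pdx1 gRNA 4 stood at -0.43 and -0.72 (log2 CPM deviation), near control gRNA 1 at -0.51 and -1.04, and control gRNA 4 at 0.18 and 0.53, on the side of the other 3 Pdx1 gRNA libraries. The cholesterol median was 0.16 without control gRNA 1 and 0.71 without control gRNA 4, and the fatty acid median ran from 0.44 to 0.75 with each library left out. Srebf1, the factor that drives lipid synthesis, was at 351, 241, 263 and 92.2 CPM against 84.7, 168, 118 and 150 CPM. Pdx1 gRNA 4 was the lowest of its group by far.

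Stress genes split. Integrated stress response and unfolded protein response genes were above 0 in 29 of 40 (median 0.14), and 4 had groups apart, all higher (10.0%, against 3.48% of all tested genes). The median ran from 0.08 to 0.19 with each library left out. Atf3, a stress-induced repressor, was at 90.7, 119, 52.8 and 61.1 CPM against 30.2, 23.7, 32.6 and 44.7 CPM, with a log2 fold change of 1.30 ± 0.48 and PBS libraries at 2.50 to 13.4 CPM. Xbp1, a factor of the unfolded protein response, was at 233, 256, 255 and 196 CPM against 171, 167, 172 and 174 CPM (0.46 ± 0.14). Trib3, induced by ATF4, overlapped at 194, 231, 244 and 230 CPM against 210, 135, 154 and 128 CPM. Fosb, an immediate early gene, lay apart in the other direction, at 0.621, 0.663, 0.453 and 0.864 CPM against 2.20, 2.97, 2.11 and 1.11 CPM.

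NRF2 and glutathione genes were below 0 in 27 of 30 (median -0.20), with Pdx1 gRNA 4 at 0.44, the highest library, and the median was -0.51 without it. Genes of p300 and its fellow coactivators differed little in the median (14 of 25 above 0, median 0.07). Of them 1 was apart and higher (4.0%, against 3.48% of all tested genes) and 2 apart and lower (8.0%, against 3.17%). Ep300 was at 40.4, 40.9, 44.3 and 60.7 CPM against 41.6, 35.6, 39.2 and 39.96 CPM, so Pdx1 gRNA 4 was the highest library. Whether RNA of the fusion added to these counts was not tested. Mitochondrially encoded genes were below 0 in 14 of 14 (median -0.30) and ribosomal protein genes in 35 of 42 (median -0.12). None of them had groups apart, against 6.65% of all tested genes. The first median was -0.06 without Pdx1 gRNA 4 and the second -0.02 without control gRNA 1. Male-biased (median 0.64) and female-biased (0.45) liver genes both leaned higher with wide spread. The female-biased median was -0.06 without Pdx1 gRNA 3 and 0.90 without control gRNA 2, and the male-biased one 0.41 without control gRNA 1 and 0.93 without Pdx1 gRNA 4. The major urinary protein gene Mup7, male-biased in liver, was at 0.0373 to 1.96 CPM in the 8 virus libraries and at 1.08 and 1.00 CPM in PBS libraries 1 and 4, but at 1691 and 532 CPM in PBS libraries 2 and 3, the pair low in Xist. The remaining lists had medians of 0.26 (fasting and feeding), 0.19 (bile acid and drug metabolism), 0.14 (acute phase), 0.13 (erythroid), 0.10 (PPAR alpha), 0.03 (p53), 0.01 (immediate early and heat shock) and -0.16 (cell cycle). Those of the erythroid (-0.03 without control gRNA 1), PPAR alpha (-0.05 without Pdx1 gRNA 2), p53 (-0.04 without Pdx1 gRNA 4), immediate early (-0.09 without Pdx1 gRNA 4) and cell cycle lists (0.09 without control gRNA 1) changed sign with 1 library left out.

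**Figure D5:**
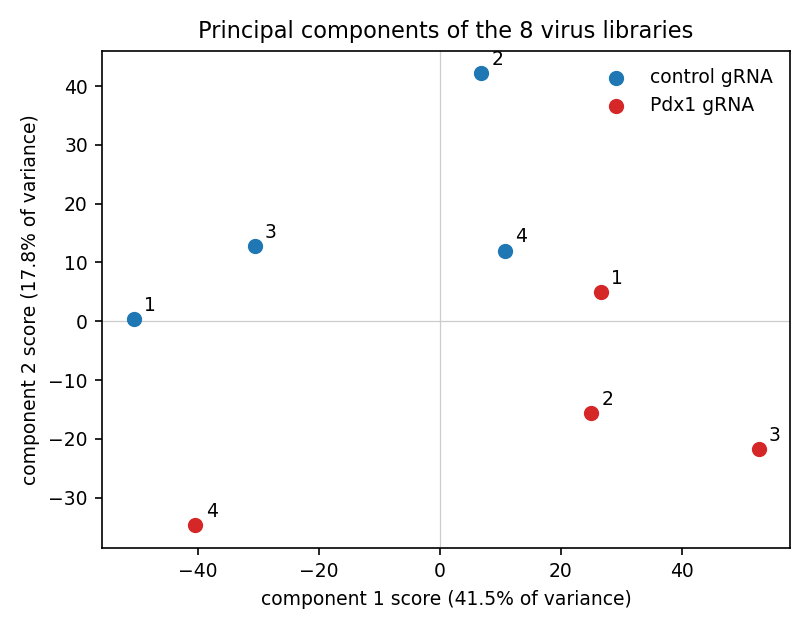
Scores of the 8 virus libraries on the first (horizontal axis) and second (vertical axis) principal components of log2 CPM over tested genes, with the library number beside each point. Pdx1 gRNA 4 lies at the left with control gRNA 1 and 3, and the other 3 Pdx1 gRNA libraries lie at the right.

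The widest contrast among the 8 virus libraries did not separate the gRNA groups. The first principal component, with 41.5% of the variance, put Pdx1 gRNA 4 (-40.5) beside control gRNA 1 (-50.7) and control gRNA 3 (-30.7). Pdx1 gRNA 1, 2 and 3 (26.6, 25.0 and 52.7) lay above control gRNA 2 (6.82) and control gRNA 4 (10.7). The cystine transporter gene Slc7a11, chosen here after its values were seen, had this shape: 0.155, 1.55, 0.0755 and 123 CPM with the Pdx1 gRNA and 39.8, 4.64, 38.9 and 7.87 CPM with the control gRNA. The library with the most Pdx1 RNA was thus the one that lay farthest from the rest of its own group on this component. On the second component (17.8% of the variance) Pdx1 gRNA 1 to 4 scored 4.90, -15.6, -21.8 and -34.7. Control gRNA 1 to 4 scored 0.36, 42.2, 12.7 and 12.0 there. Without Pdx1 gRNA 4, 2483 genes had groups that did not overlap, with 3 libraries in place of 4 on that side, and without it and control gRNA 1 there were 3098.

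Eif3j2, a translation initiation factor gene on chromosome 18 picked out after its values were seen, separated the gRNA groups with little spread within either. It was at 1.97, 2.06, 1.51 and 2.03 CPM with the Pdx1 gRNA and 19.3, 20.7, 18.9 and 16.5 CPM with the control gRNA. In the PBS group, library 1 had 25.3 CPM and the other 3 had 0.930 to 1.14 CPM, so the level also divided mice that had no virus. Its edgeR adjusted p was 0.809 with all 12 libraries, 3.01e-05 with the 8 virus libraries alone and 1.95e-06 without PBS library 1 (log2 fold change -3.30 ± 0.16 in both), and DESeq2 gave it no adjusted p. The near-identical copy Eif3j1 can share its reads. Gipc2, also picked afterwards, was at 0.621, 1.4, 0.907 and 14.48 CPM against 23.7, 6.73, 13.3 and 10.0 CPM, and edgeR called it only when Pdx1 gRNA 4 was left out, alone or with control gRNA 1 (adjusted p = 0.0454 and 0.0415).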

How the data were processed

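Polyadenylated liver RNA of 12 libraries was compared as 4 Pdx1 gRNA against 4 control gRNA libraries, with 4 PBS libraries in the fit. The deposited values are raw counts of fragments per gene, made by the authors with featureCounts 1.4.6-p4 on paired ends, exons summed by gene, without regard to strand, on GENCODE M13, per the file headers. The submitters' processing notes name Trimmomatic 0.32, STAR 2.4.1a, Subread, DESeq2 1.22.0 and R 3.5.1. Genes passing filterByExpr (minimum count 10), 15219 of 50600, were scaled by TMM and fitted with edgeR 4.0.16 (quasi-likelihood, robust, two-sided, Benjamini-Hochberg) in R 4.3.3. DESeq2 1.42.0, limma 3.58.1 (voom), other scalings, filters and blocks, and libraries left out were alternatives. CPM use TMM-scaled sizes, and totals of 11824767 to 22008046 counts (13531769 or more in the virus groups) limit what low genes can show.

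The members and gene lists were chosen with earlier results of these data known. Named genes were Pdx1, all DESeq2 calls, the 8 higher and 8 lower genes with the smallest edgeR p (mean of at least 1 CPM, groups that do not overlap, no predicted-gene symbol) and the 2 smallest p of each of 32 lists. Other list members are given for description. Eif3j2, Gipc2, Slc7a11, H19, Igf2 and Afp were added after their values were seen. A few genes picked this way are not reported here. The methods were tested on simulated data.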

Additional observations from a re-analysis of the deposited data

Results flagged for a closer look

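Within each group of 4, a library was singled out when its gap to the nearest other, over the group's range, passed Dixon's 95% critical value. Groups with under 10 counts in every library were not tested. This picked 17 of 155 tests, and chance picks about 1 in 20 groups. H19, Igf2, Afp, Slc7a11 and Gipc2 had been chosen for their spread, so their 8 do not count toward that share.

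Pdx1 gRNA 4 stood apart in 7. It was highest for Slc7a11 (122.6 CPM), H19 (231.9 CPM), Igf2 (5.893 CPM), Afp (36.93 CPM), Gipc2 (14.48 CPM) and the glutathione transferase gene Gsta1 (147.3 CPM). It was lowest for the organic anion transporter gene Slco1a1 (3.505 CPM). Control gRNA 1 stood apart in 6, always highest: H19 (3539 CPM), Igf2 (716.1 CPM), Afp (196.1 CPM), Spp1 (361.0 CPM), the endothelial receptor gene Lyve1 (32.01 CPM) and Olfml3 (12.57 CPM).

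The others were single cases. Control gRNA 3 was highest for Gpx2 (11.71 CPM) and control gRNA 4 for Brpf3 (63.84 CPM). Control gRNA 2 was lowest for Amy1 (115.3 CPM, beside 118.1 to 118.4 CPM in the other control libraries). Pdx1 gRNA 2 was lowest for Ifit3 (16.07 CPM).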

How the results depend on the processing

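Called genes numbered 0 in the 12-library edgeR fit, 14 with DESeq2, and 1 each with only the 8 virus libraries, with the replicate block on those 8 and with Pdx1 gRNA 4 and control gRNA 1 both left out (an alternative chosen after seeing the data). Leaving out each replicate in turn gave 0 to 1 calls. Genes with groups apart numbered 1012, from 1033 to 2483 with each library left out, and 3098 with both libraries left out, where smaller groups separate more easily by construction. The 2483 came without Pdx1 gRNA 4, 1868 without control gRNA 4, 1824 without Pdx1 gRNA 1 and 1541 without control gRNA 1.

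The log2 fold change of Pdx1 was 7.77 with DESeq2 and 6.4 to 7.74 with each library other than control gRNA 4 left out. Without control gRNA 4 the control group had 0 counts, so the fitted 9.47 depends on the prior count, and by summed counts Pdx1 was at least 131-fold higher (floor of 3 counts over the group). Adjusted p ran from 0.00335 to 0.999 over 25 alternatives. With the replicate block the log2 fold change was 7.38 (adjusted p = 0.110) over 12 libraries and 7.42 (0.0531) over 8. Same-numbered libraries did not deviate together (correlations of -0.171, 0.0671, -0.35 and -0.448), and 0 of 8 libraries correlated best with its own number. The difference in mean CPM, 5.17, ranged from 2.52 to 6.42 CPM with each library left out and was 2.46 CPM (exact p = 0.1, the smallest of 20 assignments) with both left out. Without any 1 control library its exact p was 0.0857.

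Of 2019 alternative values for 81 named genes other than Pdx1, 1995 kept direction and side of the threshold, 18 passed it and 6 reversed; the cause was not tested. With each library left out, Slc7a11 ranged from -5.32 to 0.92 and Afp from -3.05 to 0.19. Slc7a11 went from 0.45 to -3.32 with limma-voom, -2.73 and -3.12 with the replicate block (12 and 8 libraries), -5.32 without Pdx1 gRNA 4 and -4.89 with both libraries left out. Afp went from -2.0 to 0.19 without control gRNA 1. Of 800 list medians 10 moved beyond their spread. Genes under about 1 CPM rest on few counts, and the 33 untested islet genes are below what this depth can compare.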
